A study of Mus musculus with 9 samples.

Results

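The genes described here defend cells against oxidants. The set was a list of 10 genes, Nfe2l2, Hmox1, Nqo1, Osgin1, Gclc, Gstm1, Txnrd1, Prdx1, Sod1 and Sod2, and its members were taken by symbol from a table of 757 mouse genes. The table held 9 of the 10, and Sod1 was not analysed here. Expression was measured in microglia-like cells, sorted from mouse brain as CD45+CD11b+ cells negative for the dead-cell dye 7-AAD. The 9 samples formed 3 groups with 3 samples each, namely Sham, TIA 24h (24 h after a transient ischemic attack) and TIA 3d (3 d after it). In the TIA groups a filament blocked the middle cerebral artery for a few minutes. Sham mice, the control, had the same surgery without the occlusion. The labels name no genotype, strain, age or sex for single samples. Per the study's methods and legends, the mice were male, and young adult C57BL6/J wild-type animals are the strain named for the study in general. All brains, Sham included, were placed in a solution with actinomycin D, an inhibitor of transcription, and dissociated with papain, so that all groups share these steps. RNA was hybridised to probes of a neuroinflammation panel, and single barcoded probes were counted on an nCounter instrument without amplification.

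NRF2, the protein made from Nfe2l2, is the main transcription factor of the antioxidant response. In resting cells KEAP1 marks it for degradation, and oxidants or electrophiles release it to bind antioxidant response elements near genes for quinone and heme breakdown, glutathione synthesis and thioredoxin reduction. Microglia produce superoxide through the NADPH oxidase and are therefore both a source and a target of oxidants after ischemia.

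Promoter windows from RefSeq (GRCm38.p6), reaching from 250 bases before to 50 after a transcription start, were searched for the core letters of the antioxidant response element, TGACNNNGC, on both strands. The matches are shown because this element defines the route by which NRF2 reaches its target genes. Windows were given for 8 of the 10 listed genes, and 4 of these 8 held the letters, among them Sod1. Over the genome, 12.4% of 32851 windows and 14.0% of 27025 genes held them. The 3 matches in measured genes are printed on the strand of the gene from 5′ to 3′, with the core in capitals, and a core on the opposite strand reads as its reverse complement.
Nfe2l2: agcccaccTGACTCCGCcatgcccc
Txnrd1: ggatttttGCTTTGTCAttctgaca
Prdx1: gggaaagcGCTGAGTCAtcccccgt
The Nfe2l2 match lies at chr2:75704887-75704911 on the minus strand, starting 240 bases before the start site of the gene that encodes NRF2 itself. The Txnrd1 match lies at chr10:82859106-82859130, 92 bases before the start in 1 of its 3 windows. The Prdx1 match lies at chr4:116685458-116685482, 133 bases before the start. The latter 2 genes lie on the plus strand and carry the core on the opposite strand. Nqo1, Osgin1, Gstm1 and Sod2 had no match in their windows, which says only that these letters are not in these bases. A match is a description of letters and was not tested as a binding site.

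Depth differed between the lanes and limits every value given here. Whole counts could be recovered from the deposited values, and their totals over all genes ranged over 6560 to 25582 (Sham), 7248 to 10929 (TIA 24h) and 29200 to 62883 (TIA 3d). The markers of microglia (12 of 14 listed genes in the table) took 25.5%, 11.8% and 3.37% of the counts in Sham replicates 1 to 3, 2.68% to 6.49% of a TIA 24h lane and 19.6% to 22.9% of a TIA 3d lane. The Sham lanes thus stood apart from each other, replicate 1 being above the TIA 3d range and replicate 3 inside the TIA 24h range. Sham replicate 3 was also the shallowest lane, and no gene in it had more than 32 counts, where the highest count of a gene was 1118 in Sham replicate 1, 60 to 335 in TIA 24h and 984 to 2963 in TIA 3d. Values without Sham replicate 3 are given for Nfe2l2, Hmox1, Osgin1, Gstm1 and Sod2. All 12 microglial markers were called higher in TIA 3d than in TIA 24h samples. Markers of oligodendrocytes (10 of 13 in the table) took 0.50% to 5.79%, 2.33% to 5.47% and 0.299% to 0.588% in Sham, TIA 24h and TIA 3d, and markers of astrocytes (5 of 10) 0.324% to 1.02%, 0.669% to 1.18% and 0.164% to 0.314%. Those of blood leukocytes (14 of 18) took 0.438% to 1.31%, 1.07% to 1.36% and 0.191% to 0.534%. The part of depth and of other cells in the results on the defence genes was not tested, and in such bulk samples fewer cells of a type and less RNA per cell cannot be told apart.

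Counts of the 9 measured genes were low. The 81 values, 9 genes in 9 samples, ranged from 1 to 70 counts with a median of 11, and 33 of them were below 10. Together the genes had 117, 115 and 68 counts in Sham replicates 1 to 3, 105, 76 and 74 counts in TIA 24h, and 221, 137 and 239 counts in TIA 3d. As a share of the lane these were 0.457%, 0.772% and 1.04% in Sham, 0.961%, 0.959% and 1.02% in TIA 24h, and 0.429%, 0.469% and 0.380% in TIA 3d. The TIA 3d samples thus had more counts of these genes in all, but a smaller share than any TIA 24h sample. Negative control probes were not analysed here, so the background of a lane is not known, and the 7 neuronal markers in the table, genes that the sort should leave out, were read for comparison. Their highest count was 11, 17 and 14 in Sham, 11, 12 and 12 in TIA 24h, and 17, 12 and 16 in TIA 3d. The number of the 9 genes above it was 6, 2 and 2 in Sham, 3, 2 and 2 in TIA 24h, and 7, 5 and 6 in TIA 3d. Nqo1 and Gstm1 exceeded it in 0 of 9 lanes and Prdx1 in 1, whereas Osgin1 did in 8 and Sod2 in 7. For Nqo1 and Gstm1 a level above background is therefore not shown, and their log2 differences are given as values of the table without a fold. Levels given in the following are log2 normalised counts, that is, counts relative to the housekeeping probes of the lane, and they compare samples for 1 gene. They do not compare genes, since each gene has its own probe.

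**Figure D1:**
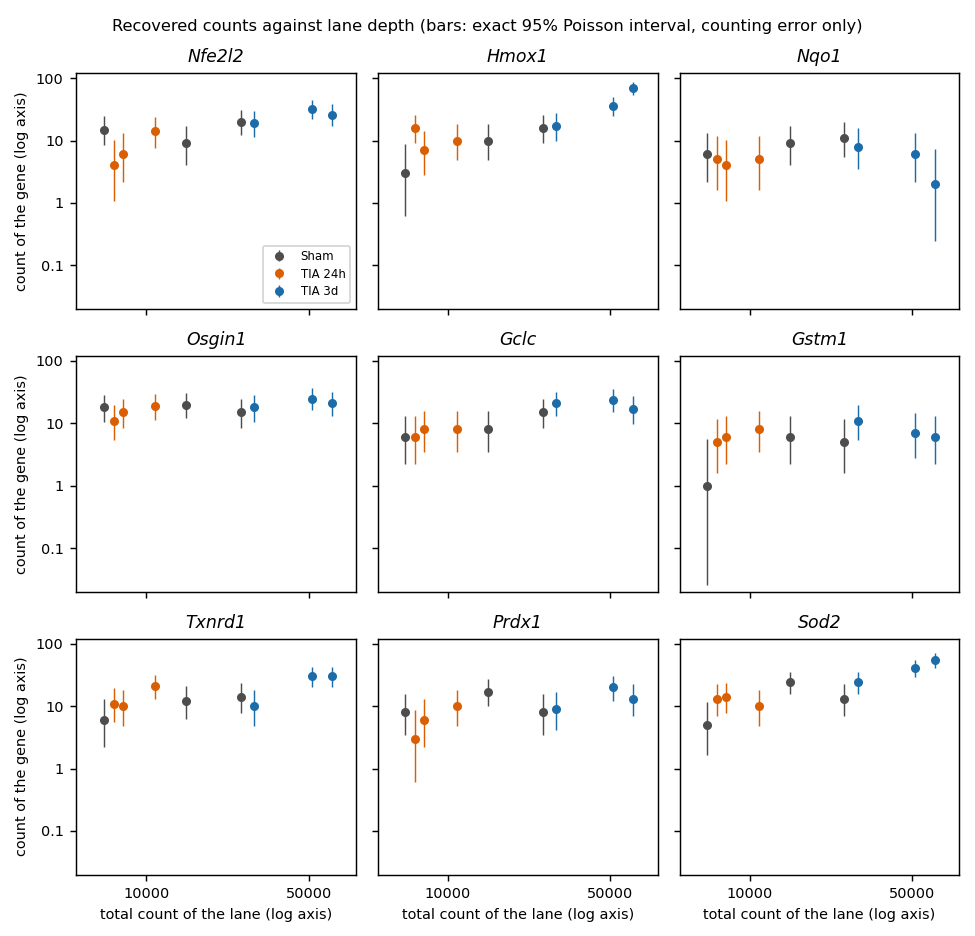
Recovered counts of each gene (log axis) against the total count of the lane (log axis) in Sham, TIA 24h and TIA 3d, 1 point per sample, with exact Poisson intervals at the 95% level that cover counting error only. Hmox1 and Sod2 reach their highest counts, 70 and 54, in the deepest lane, while Nqo1 has its lowest count, 2, there.

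Over the 3 groups the question was whether defence genes were altered in these cells after TIA and at which time. None of the 9 genes passed. In the moderated F test of limma, 0 of 9 had an adjusted p under 0.05, and 0% of all 757 genes did. Voom on the recovered counts and the ordinary linear model also gave 0 of 9, whereas scaling the recovered counts to the lane total gave 4 of 9 (Nqo1, Osgin1, Gstm1 and Txnrd1), where 32.2% of all genes passed. The lowest adjusted p values were 0.0901 for Nqo1 and 0.139 for Gstm1, and both were also under 0.05 before adjustment, as were 235 of all genes (31.0%). The genes with the clearest separation of values were Nqo1, lowest at TIA 3d, Gstm1 and Txnrd1, highest at TIA 24h, and Osgin1, lowest at TIA 3d. Each rests on few counts, and for Nqo1 and Gstm1 a level above background is not shown.

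**Figure D2:**
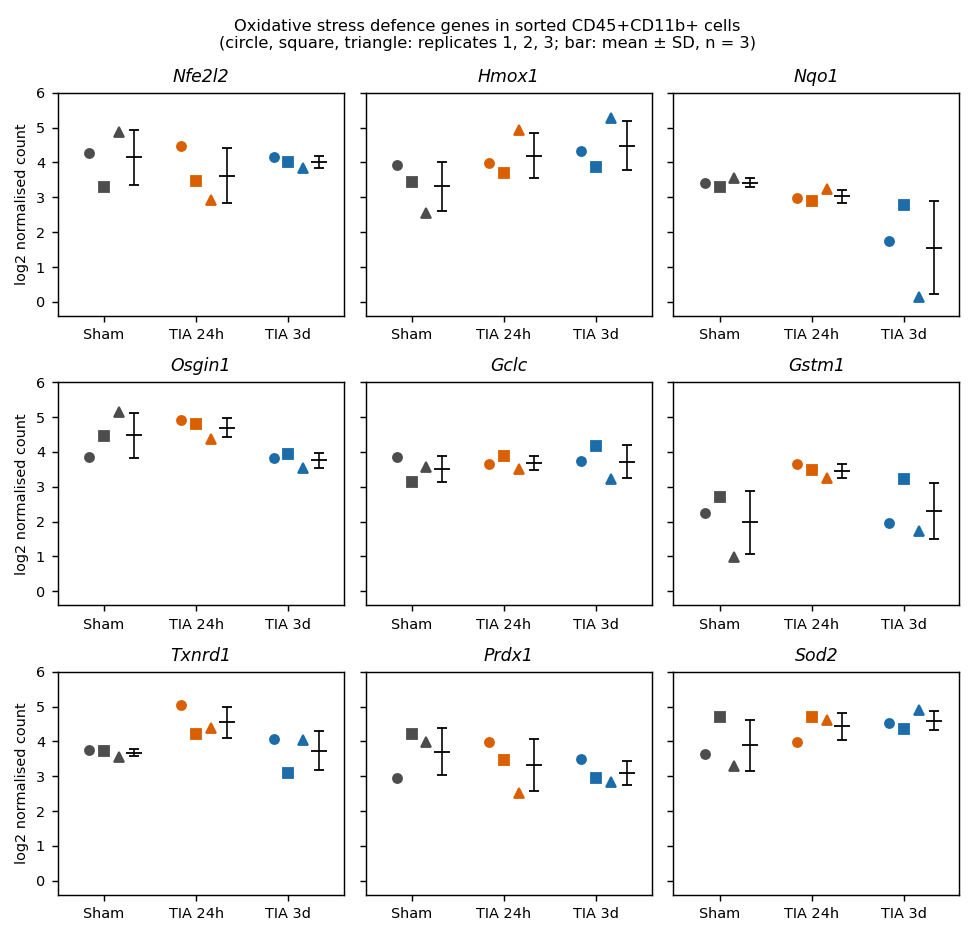
Log2 normalised counts of the 9 genes in Sham, TIA 24h and TIA 3d, with 1 symbol per replicate and the mean ± SD (n = 3) beside each group. Nqo1 is lower in every TIA 3d sample (0.13 to 2.77) than in every Sham sample (3.30 to 3.56), and Gstm1 is higher in every TIA 24h sample (3.24 to 3.66) than in every Sham sample (0.97 to 2.71). A level above background is not shown for either gene.

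Nfe2l2, which encodes the regulator, showed no separation of the groups. Its level was 4.26, 3.30 and 4.88 in Sham replicates 1 to 3, 4.46, 3.47 and 2.92 in TIA 24h, and 4.17, 4.02 and 3.83 in TIA 3d, from 4 to 32 counts. The TIA 3d values lay close together and inside the range of both other groups. Mean levels were 4.15 ± 0.80 for Sham, 3.62 ± 0.78 for TIA 24h and 4.01 ± 0.17 for TIA 3d (SD, n = 3), an order in which no neighbours differed by more than the SD of Sham. Relative to Sham the log2 difference was -0.53 at TIA 24h (SE 0.51, 95% interval -1.62 to 0.56, adjusted p = 0.796) and -0.14 at TIA 3d (95% interval -1.23 to 0.95, adjusted p = 0.889). Without Sham replicate 3 these differences were -0.16 and 0.23, and without Sham replicate 2 they were -0.95 and -0.56. At TIA 24h the value was -0.95 without TIA 24h replicate 1 and -0.18 without replicate 3. NRF2 is controlled largely by the stability of the protein, which these counts do not measure.

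Of the 3 genes known as NRF2-induced enzymes and regulators outside the glutathione and thioredoxin systems, Hmox1 was the only one with higher means after TIA at both times. Hmox1 encodes heme oxygenase, which opens heme to biliverdin, iron and carbon monoxide. Its level was 3.94, 3.45 and 2.56 in Sham, 3.98, 3.69 and 4.92 in TIA 24h, and 4.34, 3.86 and 5.26 in TIA 3d. Sham replicate 3 was the lowest sample with 3 counts, TIA 3d replicate 3 the highest with 70, and the groups overlapped in all pairs. The log2 difference to Sham was 0.88 at TIA 24h (SE 0.52, 95% interval -0.24 to 2.00, adjusted p = 0.722) and 1.17 at TIA 3d (95% interval 0.05 to 2.29, adjusted p = 0.238), and neither passed. Among all genes measured, 98 had a log2 difference at least as high at TIA 3d. Without Sham replicate 3 it was 0.79 at TIA 3d and 0.50 at TIA 24h, without TIA 24h replicate 3 it was 0.52 at TIA 24h, and without TIA 3d replicate 3 it was 0.78 at TIA 3d. With the log2 lane total in the model the TIA 3d value was -0.03 (SE 0.69). Every TIA 3d lane was deeper than every other, and this value is too imprecise to give a direction.

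Nqo1 encodes a quinone reductase that takes quinones past the semiquinone step and is widely used as a readout of NRF2. In the main analysis it had the largest difference of the set in size, though a level above background is not shown for it. Its level was 3.40, 3.30 and 3.56 in Sham, 2.98, 2.89 and 3.24 in TIA 24h, and 1.75, 2.77 and 0.13 in TIA 3d. Every TIA 24h value was below every Sham value, and every TIA 3d value was below both other groups. At TIA 3d the log2 difference to Sham was -1.87 (SE 0.56, 95% interval -3.07 to -0.66, adjusted p = 0.158). Against TIA 24h the log2 difference was -1.48 (95% interval -2.69 to -0.28, adjusted p = 0.0704). The difference between TIA 24h and Sham was -0.38 (adjusted p = 0.861).

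These Nqo1 values rest on few probes counted. The counts were 11, 9 and 6 in Sham, 5, 4 and 5 in TIA 24h, and 6, 8 and 2 in TIA 3d, so that the counts of TIA 24h lay below those of Sham, whereas the counts of TIA 3d overlapped both other groups and were apart from them only after division by the lane factors. These factors differed by up to 3.58-fold and the lane totals by up to 9.59-fold. The count of 2 in TIA 3d replicate 3 has an exact Poisson interval of 0.242 to 7.22, and that of 11 in Sham replicate 1 one of 5.49 to 19.7. Without TIA 3d replicate 3 the log2 differences were -1.16 to Sham and -0.77 to TIA 24h. Without TIA 3d replicate 2, the highest of its group, the difference to TIA 24h was -2.09 and passed (adjusted p = 0.0385), as did 15.1% of all genes in that setting. Nqo1 stayed lower under every scaling tried in all 3 comparisons. With the lane total in the model, however, the difference to TIA 24h was only -0.07 (SE 1.01), and after quantile normalization it was -0.86.

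Osgin1, an oxidative stress-induced growth inhibitor, was lowest at TIA 3d. Its level was 3.85, 4.45 and 5.14 in Sham, 4.90, 4.79 and 4.38 in TIA 24h, and 3.81, 3.94 and 3.52 in TIA 3d. All TIA 3d values were below all TIA 24h values, while Sham replicate 1 lay within the TIA 3d range. The mean was 1.91-fold lower in TIA 3d than in TIA 24h samples, a log2 difference of -0.93 (SE 0.43, 95% interval -1.85 to -0.01, adjusted p = 0.121). It was -0.72 relative to Sham (adjusted p = 0.334), and -0.39 without Sham replicate 3. Counts were 15, 20 and 18 in Sham, 19, 15 and 11 in TIA 24h, and 25, 18 and 21 in TIA 3d, and thus hardly differed between lanes of very different totals. With the lane total in the model the values were 0.23 (SE 0.70) against TIA 24h and 0.12 (SE 0.56) against Sham, too imprecise to give a direction.

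Of the glutathione genes, Gclc showed no separation of the groups and Gstm1 had its highest values at TIA 24h. Gclc encodes the catalytic subunit of the ligase for the rate-limiting step of glutathione synthesis, and its levels were 3.85, 3.13 and 3.56 in Sham, 3.66, 3.89 and 3.51 in TIA 24h, and 3.75, 4.16 and 3.22 in TIA 3d. The groups overlapped throughout, and the means of 3.51 ± 0.36, 3.68 ± 0.19 and 3.71 ± 0.47 (SD, n = 3) differed by less than their SDs. The log2 difference to Sham was 0.17 at TIA 24h (SE 0.41, 95% interval -0.71 to 1.05) and 0.20 at TIA 3d (95% interval -0.68 to 1.08), with adjusted p values of 0.934 and 0.794. These intervals hold for 1 gene, before adjustment over the table.

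Gstm1 encodes a glutathione S-transferase that couples glutathione to electrophiles. Its level was 2.26, 2.71 and 0.97 in Sham, 3.66, 3.47 and 3.24 in TIA 24h, and 1.97, 3.23 and 1.72 in TIA 3d. All TIA 24h values were above all values of the other groups, by a very small margin over TIA 3d replicate 2. The log2 difference of TIA 24h to Sham was 1.47 (SE 0.53, 95% interval 0.33 to 2.61, adjusted p = 0.647). From TIA 24h to TIA 3d it was -1.15 (95% interval -2.29 to -0.01, adjusted p = 0.122). The counts were only 5, 6 and 1 in Sham, 8, 6 and 5 in TIA 24h, and 7, 11 and 6 in TIA 3d, in each lane at or below the highest neuronal marker. Sham replicate 3, with a single count (exact Poisson interval 0.0253 to 5.57), lowered the Sham mean, and without it the difference between TIA 24h and Sham was 0.97. The higher value at TIA 24h was seen under every scaling tried, though quantile normalization reduced the difference between the times to -0.53. Gstm1 belongs to a family of closely similar genes, and how well its probe tells them apart is not given in the sources used here.

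In the thioredoxin and peroxiredoxin system, Txnrd1 stood highest at TIA 24h. Txnrd1 encodes the cytosolic thioredoxin reductase, a selenoprotein that returns thioredoxin to its reduced form with NADPH, and it is 1 of the genes with the element letters in its promoter window. Its level was 3.75, 3.71 and 3.56 in Sham, 5.05, 4.21 and 4.38 in TIA 24h, and 4.07, 3.09 and 4.04 in TIA 3d. All TIA 24h values exceeded all values of the other groups. Sham varied little, with an SD of 0.10, but counting error alone gives an SD of 0.47 at its counts. The closeness of the Sham values is therefore no sign of precision. The mean was higher at TIA 24h than in Sham by a log2 difference of 0.87 (SE 0.42, 95% interval -0.04 to 1.79, adjusted p = 0.713). It was -0.81 from TIA 24h to TIA 3d (95% interval -1.72 to 0.10, adjusted p = 0.170). Counts were 14, 12 and 6 in Sham, 21, 10 and 11 in TIA 24h, and 30, 10 and 30 in TIA 3d, above the highest neuronal marker in 4 of 9 lanes. Both directions held under every scaling and without any single sample, but the size of the difference between the times did not. It was -0.49 without TIA 3d replicate 2, -0.47 after median centring and -1.72 (SE 0.74) with the lane total in the model. Scaled to the lane total, it was -1.77 and passed (adjusted p = 0.00949). In contrast, the TIA 3d value relative to Sham (0.06, adjusted p = 0.940) turned in sign with the scaling.

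Prdx1 encodes a peroxiredoxin, which reduces hydrogen peroxide with electrons from thioredoxin. Its level was 2.94, 4.21 and 3.97 in Sham, 3.98, 3.47 and 2.51 in TIA 24h, and 3.49, 2.94 and 2.83 in TIA 3d. The groups overlapped in each comparison, and Sham alone spanned more than the distance between any of the means. The log2 difference to Sham was -0.39 at TIA 24h (SE 0.49, 95% interval -1.45 to 0.67, adjusted p = 0.843) and -0.62 at TIA 3d (95% interval -1.68 to 0.44, adjusted p = 0.463). Without Sham replicate 1 these differences were -0.78 and -1.01, without Sham replicate 2 they were -0.14 and -0.37, and at TIA 24h the value was 0.02 without TIA 24h replicate 3 and -0.72 without replicate 1. Prdx1 shares with Txnrd1 the element letters in its promoter window, but its mean at TIA 24h lay below that of Sham and that of Txnrd1 above. Prdx1 counts were 8, 17 and 8 in Sham, 10, 6 and 3 in TIA 24h, and 20, 9 and 13 in TIA 3d. They exceeded the highest neuronal marker in 1 of 9 lanes, so this contrast rests on low counts.

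Sod2 encodes the manganese superoxide dismutase of mitochondria, which turns superoxide into hydrogen peroxide and is known to be induced through NF-kB as well. Its level was 3.64, 4.71 and 3.30 in Sham, 3.98, 4.69 and 4.62 in TIA 24h, and 4.53, 4.36 and 4.89 in TIA 3d. Sham replicate 2 lay among the TIA values, while the other 2 Sham samples were below all of them. The log2 difference to Sham was 0.55 at TIA 24h (SE 0.45, 95% interval -0.43 to 1.53, adjusted p = 0.783) and 0.71 at TIA 3d (95% interval -0.27 to 1.68, adjusted p = 0.366). Without Sham replicate 2 the differences were 0.96 and 1.12, and without Sham replicate 3 they were 0.26 and 0.41. Scaled to the lane total, the TIA 3d difference was -0.10. Its counts, 13, 24 and 5 in Sham, 10, 14 and 13 in TIA 24h, and 41, 24 and 54 in TIA 3d, were highest in the deepest lanes.

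For TIA 24h against Sham, which asks for the early response, 0 of the 9 genes passed and 0% of all genes did. At an unadjusted p under 0.05 there was 1 gene of the set, Gstm1, beside 57 of 757 in the table. Means were higher for 6 and lower for 3 genes, with a median log2 difference of 0.21 beside 0.15 over all genes. The groups did not overlap, with TIA 24h higher, for 2 genes of the set (Gstm1 and Txnrd1), where 8.06% of all genes did so, and with TIA 24h lower for Nqo1, where 1.72% did. Markers of other cells were mostly higher as well. Median log2 differences were 0.71 for oligodendrocytes (10 of 10 higher) and 0.53 for astrocytes (5 of 5). They were 0.64 for blood leukocytes (11 of 14) and 0.22 for neurons (6 of 7). For microglia the median was -1.58 (0 of 12 higher), and none of these markers was called. Their part in the values of the defence genes was not tested.

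For TIA 3d against Sham, which asks for the later response, again 0 of the 9 genes passed beside 0% of all genes. In this comparison and the one at 24 h, none of the 17 alternatives called a gene of the set. Nqo1 and Hmox1 were under 0.05 before adjustment, as were 148 genes of the table. Means were higher for 5 and lower for 4 genes, with a median of 0.06 beside -0.01 over all genes. No gene of the set was higher without overlap, where 15.1% of all genes were, and Nqo1 alone was lower without overlap, where 9.11% were. The comparison shares its Sham samples with the one at 24 h.

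From TIA 24h to TIA 3d, 19.2% of all genes passed (145 of 757), but 0 of the 9 defence genes did. Before adjustment, 3 of them (Nqo1, Gstm1 and Osgin1) were under 0.05, as were 304 genes of the table. The median log2 difference of the set was -0.23 beside -0.25 over all genes, and 4 genes were higher and 5 lower. At TIA 3d, 4 genes lay below TIA 24h without overlap (Nqo1, Osgin1, Gstm1 and Txnrd1), where 26.3% of all genes did, and none lay above without overlap, where 22.1% did. The count of calls depended on the scaling. When the recovered counts were scaled to the lane total, these same 4 genes passed, with log2 differences of -2.40 for Nqo1, -1.90 for Osgin1, -2.12 for Gstm1 and -1.77 for Txnrd1. Under that scaling the median of all genes was -1.27, so the 4 genes lay below it, and 379 genes of the table passed, 35 of them higher. With the lane total as a covariate no gene of the table passed. The neuronal markers were lower between the times as well, with a median log2 difference of -1.0, and their 1 call was a lower one. Their part, and that of depth, in the lower values of these 4 genes was not tested.

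**Figure D3:**
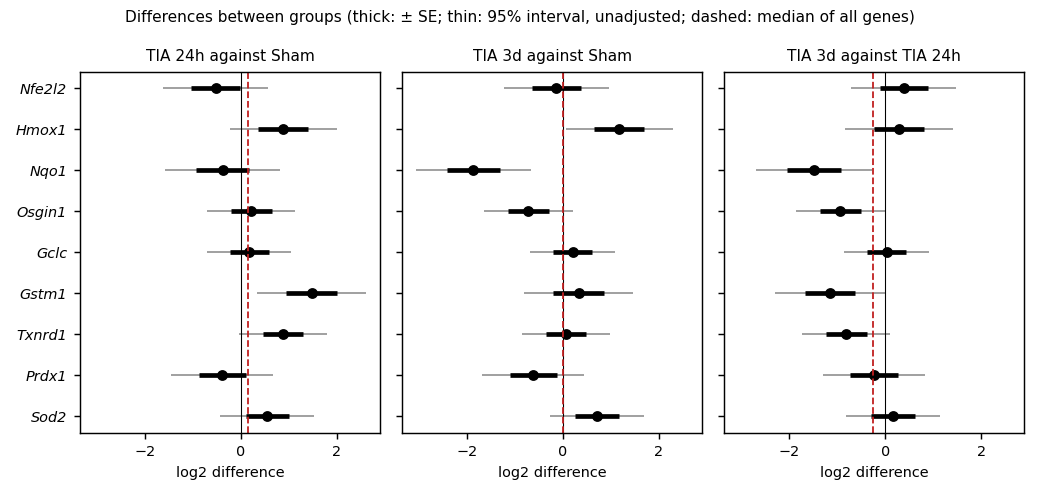
Log2 differences of the 9 genes in the 3 comparisons, with thick bars for ± SE, thin lines for the 95% interval before adjustment and a dashed line at the median of all 757 genes. The intervals exclude 0 for Gstm1 at TIA 24h against Sham, for Nqo1 and Hmox1 at TIA 3d against Sham, and for Nqo1, Osgin1 and Gstm1 between the times, and no gene passed after adjustment.

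**Figure D4:**
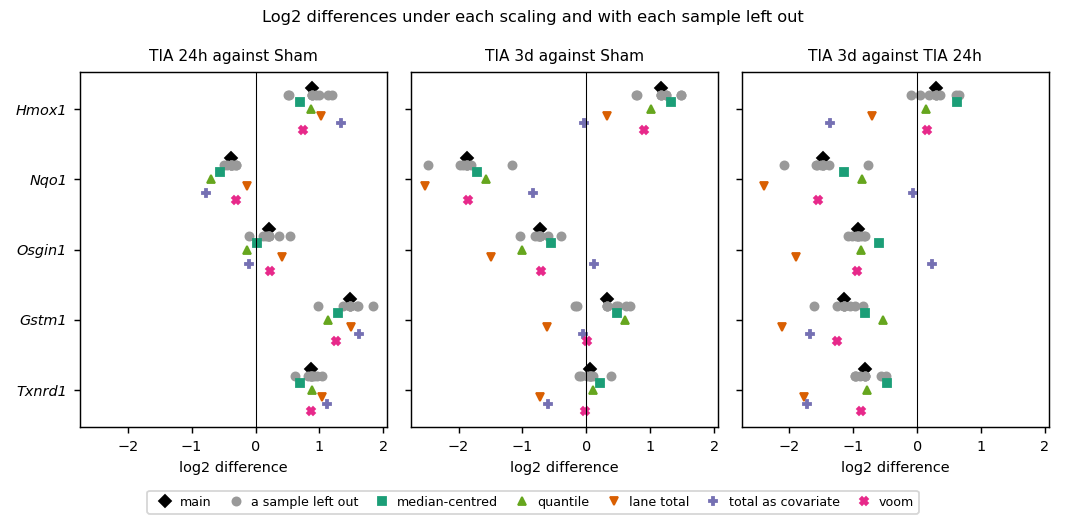
Log2 differences of the 5 genes with the smallest p values in the F test, under each scaling and with each sample left out. Nqo1 stays below 0 in all 3 comparisons, Hmox1, Gstm1 and Txnrd1 stay above 0 at TIA 24h against Sham, and at TIA 3d against Sham all but Nqo1 lie on both sides of 0 depending on the setting. In that comparison Hmox1 and Osgin1 change sides only with the lane total as covariate.

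Other genes of the pathway were read from a list of 62, of which 9 were in the table, and 0 of these 9 passed in any of the 3 comparisons in either direction. Before adjustment 0 were under 0.05 in the early comparison with Sham (7.53% of all genes), 1 in the later one (19.6%) and 3 between the times (40.2%), and voom and the ordinary linear model also called 0. Scaled to the lane total, 3 passed between the times, where 50.1% of all genes did, and 2 passed the F test, where 32.2% did. Without Sham replicate 1, 1 passed at TIA 3d against Sham (11.1% of all genes) and 1 the F test (18.0%), and without Sham replicate 3, 1 passed the F test (16.6%). The regulators and partners of NRF2 were represented by Maff and Sqstm1 (2 of 8), other glutathione and thioredoxin genes by Srxn1 (1 of 21), and sources of superoxide by Ncf1, Rac1 and Rac2 (3 of 13). The repair of oxidised DNA was represented by Ogg1, Nthl1 and Apex1 (3 of 6), and none of 14 further genes for superoxide, peroxide, heme, iron and NADPH was in the table. Within each of these small groups the members differed in direction or size. From TIA 24h to TIA 3d the log2 difference was 2.09 for Ncf1, 1.33 for Rac1 and 0.05 for Rac2, it was -0.57 for Ogg1, -1.15 for Nthl1 and 0.77 for Apex1, and it was -1.41 for Maff and 0.55 for Sqstm1, beside a median of -0.25 over all genes. Sqstm1, whose protein p62 binds KEAP1, was higher on average at TIA 3d than in Sham by 0.65 (adjusted p = 0.366), and Srxn1, which repairs overoxidised peroxiredoxins, was higher at TIA 24h by 0.74 (adjusted p = 0.782). Both had overlapping groups. Counts of Srxn1 (2 to 12), Ogg1 (4 to 10) and Apex1 (1 to 14) did not exceed the highest neuronal marker in any lane. For these genes a level above background is therefore not shown. Counts of Maff (2 to 20) exceeded that marker only in TIA 3d replicate 3.

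The 3 pathway genes with the smallest p between the times were Ncf1, Maff and Nthl1. Ncf1 encodes p47phox, the organiser subunit of the phagocyte NADPH oxidase. Its level was 6.22, 4.45 and 2.56 in Sham, 4.12, 3.69 and 4.51 in TIA 24h, and 6.61, 5.65 and 6.31 in TIA 3d. All TIA 3d values were above all TIA 24h values. The Sham values reached from below those of TIA 24h into the range of TIA 3d, in which 2 of the 3 samples exceeded every Sham sample. The log2 difference between the times was 2.09 (SE 0.71, 95% interval 0.55 to 3.62, adjusted p = 0.0550). The call depended on the setting. It passed after median centring (2.43, adjusted p = 0.0474), without low genes (adjusted p = 0.0483) and without Sham replicate 1 or 3 (adjusted p = 0.0128 or 0.0117). It missed when scaled to the lane total (1.07, adjusted p = 0.130) and after quantile normalization (1.61, adjusted p = 0.183). It also missed in voom (1.96, adjusted p = 0.144) and in the ordinary linear model (adjusted p = 0.161). With the lane total in the model the difference was -1.38 (SE 0.89). The 12 microglial markers were likewise higher at TIA 3d, and their part in this difference was not tested.

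Maff encodes a small MAF protein, the class with which NRF2 pairs on DNA. Its level was 2.94, 3.13 and 2.97 in Sham, 3.83, 3.69 and 3.92 in TIA 24h, and 2.97, 0.77 and 3.45 in TIA 3d. Like Txnrd1 and like Gstm1, for which a level above background is not shown, it was higher in every TIA 24h sample than in every other sample. Its counts were 8, 8 and 4 in Sham, 9, 7 and 8 in TIA 24h, and 14, 2 and 20 in TIA 3d. They exceeded the highest neuronal marker only in TIA 3d replicate 3. Its log2 difference was 0.80 from Sham to TIA 24h (SE 0.58, adjusted p = 0.742) and -1.41 from TIA 24h to TIA 3d (adjusted p = 0.0919), and without TIA 3d replicate 2, which had 2 counts, the latter was -0.60. Scaled to the lane total it was -2.31 and passed (adjusted p = 0.00826), and with the lane total in the model it was -2.80 (SE 1.07) and missed. Nthl1, a glycosylase that removes oxidised pyrimidines, had levels of 3.64, 3.83 and 4.30 in Sham, 4.83, 4.59 and 3.92 in TIA 24h, and 3.34, 4.09 and 2.45 in TIA 3d. The groups overlapped, with a log2 difference of -1.15 between the times (SE 0.48, adjusted p = 0.0945). Without TIA 3d replicate 3 it was -0.73, and scaled to the lane total it was -2.11 and passed (adjusted p = 0.0121). With the lane total in the model it was -0.02 (SE 0.85).

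**Figure D5:**
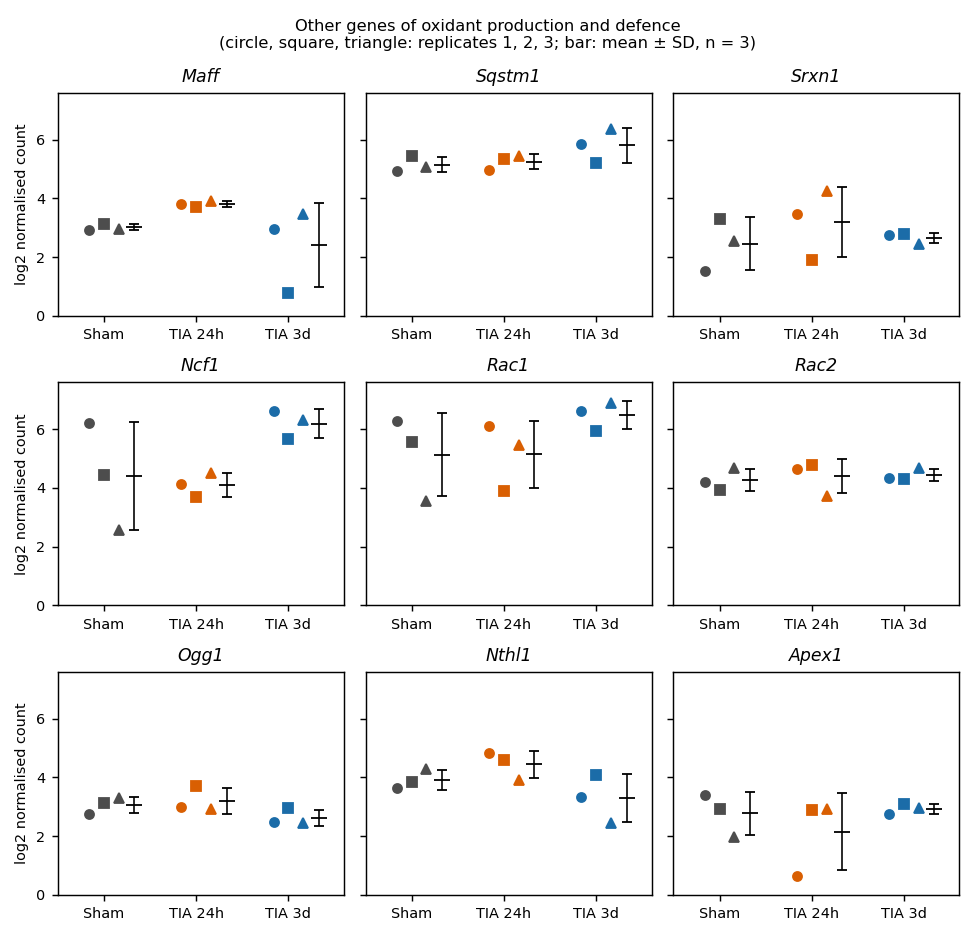
Log2 normalised counts of the 9 other pathway genes in Sham, TIA 24h and TIA 3d, with 1 symbol per replicate and the mean ± SD (n = 3). Ncf1 is higher in all TIA 3d samples (5.65 to 6.61) than in all TIA 24h samples (3.69 to 4.51), and Maff is higher in all TIA 24h samples (3.69 to 3.92) than in all others (0.77 to 3.45).

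The genes whose profile over the 9 samples was most like that of a member were found for the regulator Nfe2l2 and for Hmox1 by the root mean square difference of log2 values, each gene centred on its own mean. For Nfe2l2 these were Bax (0.320), Iqsec1 (0.379) and Padi2 (0.388), beside a median of 0.875 over all genes. Among the defence genes the nearest to Nfe2l2 was Gclc, at rank 70 of the table, whereas Hmox1 was at rank 621 and Nqo1 at rank 627. For Hmox1 the nearest genes were Optn (0.311), Mbd2 (0.399) and Tpd52 (0.411), beside a median of 1.03. Sod2 was the nearest of the defence genes to Hmox1 (0.570, rank 19), and Nqo1 was at rank 738 (1.63). Hmox1 and Nqo1, both known targets of NRF2, thus had profiles less alike than Hmox1 had with most genes of the table. For Nqo1, however, a level above background is not shown, so its distance does not tell how the expression of these targets differed. All distances are descriptions over 9 samples that share the differences in depth.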

How the data were processed

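The deposited values are log2 normalised counts of 757 genes in 9 samples. Per the study's methods, the authors counted probes on an nCounter SPRINT, divided each lane by the geometric mean of housekeeping probes chosen by geNorm in ROSALIND, and left out genes that did not exceed the highest negative control. The deposited log2 table does not say whether it was filtered in this way. Taken out of log2, all values of a lane were whole multiples of 1 step (100% of values, tolerance 0.01 counts), and dividing by that step returned the counts and lane totals (6560 to 62883). The lowest recovered count was 1, so counts of 0 may have been raised, which was not tested. A count interval covers counting error only.

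Groups were read from sample titles, and 3 mice per condition are stated. A linear model of the group means, without covariates, was fitted to the 9 log2 values of each gene with limma 3.58.1 in R 4.3.3, and variances were moderated by eBayes (7.23 prior degrees of freedom). An F test over the groups and 3 two-sided contrasts were adjusted by Benjamini-Hochberg over all 757 genes (threshold 0.05). Intervals of differences are at the 95% level for 1 gene. The fit was tested on simulated data. The methods' ANOVA with a permutation-based false discovery rate was not run. Alternatives were median centring, quantile normalization, scaling to the lane total (prior count 0.5), the lane total as covariate, voom on the recovered counts, dropping genes under the 0.25 quantile of mean log2, a replicate block, an ordinary linear model and leaving out each sample. For the 3 named pathway genes they were added after seeing the data. The reading of counts beside the neuronal markers was also added then.

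Members, gene lists and the rule for naming genes were chosen with earlier results of these data known. All members are named whatever their values, of the pathway lists the 3 genes with the smallest p between the times, since none passed, and the 3 genes nearest in profile to Nfe2l2 and Hmox1. Marker lists of neurons, endothelium and border macrophages had 7, 6 and 1 genes in the table, of which 1, 2 and 0 were called lower in TIA 3d than in TIA 24h samples and 0 higher. Of the table's symbols, 750 matched RefSeq names (GRCm38.p6), 7 an older symbol, and 0 had no match. The table states no build, and the only positions given are those of RefSeq promoter matches. Python 3.11.15 was used for the tables and figures.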

Additional observations from a re-analysis of the deposited data

How the results depend on the processing

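No gene of the set passed any test in the main analysis, and 2 alternatives moved a count of calls. Scaling to the lane total gave 4 genes in the F test and 4 in TIA 3d against TIA 24h (Nqo1, Osgin1, Gstm1 and Txnrd1), and leaving out 1 sample gave 0 to 1 genes in TIA 3d against TIA 24h, the 1 being Nqo1 without TIA 3d replicate 2, where 114 genes of the table (15.1%) passed. Over 17 alternatives and 27 differences, 408 of 453 values kept direction and call, 5 newly passed and 40 changed sign, in 16 of the differences. Values that changed sign between TIA 24h and Sham were those of Osgin1 (quantile normalization -0.14, lane total as covariate -0.11) and Gclc (median centring -0.01, quantile -0.07). Between TIA 3d and Sham they were Nfe2l2 (median centring 0.02, covariate 0.08), Hmox1 (covariate -0.03), Osgin1 (covariate 0.12), Gclc (lane total -0.60), Gstm1 (lane total -0.62, covariate -0.05), Txnrd1 (lane total -0.73, covariate -0.60, voom -0.02) and Sod2 (lane total -0.10). Between TIA 3d and TIA 24h they were Nfe2l2 (lane total -0.64), Hmox1 (lane total -0.71, covariate -1.36), Osgin1 (covariate 0.23), Gclc (lane total -0.98, voom -0.01), Prdx1 (median centring 0.11, quantile 0.25, covariate 0.16), Sod2 (lane total -0.83, covariate -0.31) and, of the pathway genes, Ncf1 (covariate -1.38). Every TIA 3d lane was deeper than every other, so the covariate runs close to the group and its values are imprecise. For Hmox1 between the times the SE was 0.86 with the covariate and 0.52 in the main analysis. A sign that turns only with the covariate therefore gives no direction. The cause of the sign changes was not tested. Leaving out 1 sample turned the sign, between TIA 24h and Sham, of Osgin1 (-0.10 to 0.54), Gclc (-0.02 to 0.34) and Prdx1 (-0.78 to 0.02), between TIA 3d and Sham, of Nfe2l2 (-0.56 to 0.23), Gclc (-0.02 to 0.45), Gstm1 (-0.18 to 0.69) and Txnrd1 (-0.11 to 0.38), and between the times, of Hmox1 (-0.10 to 0.65), Gclc (-0.20 to 0.28), Prdx1 (-0.64 to 0.10) and Sod2 (-0.07 to 0.29). Among all genes, the F test called 0 in the main analysis, 52 after median centring, 1 after quantile normalization, 244 scaled to the lane total, 40 of 568 without low genes, which drops Nqo1 and Gstm1, 136 without Sham replicate 1 and 126 without Sham replicate 3. Between the times it was 145 in the main analysis (88 higher), 144 after median centring (123 higher), 7 after quantile normalization, 379 scaled to the lane total (35 higher), 97 in voom (16 higher), 0 with the covariate or the ordinary linear model, and 0 to 226 with a sample left out. TIA 3d against Sham gave 84 genes without Sham replicate 1. The replicate number names samples only, since same-numbered samples correlated between -0.24 and 0.27 in their deviations. A fit with the replicate block called 0 genes of the set in each test, with 54 genes of the table in the F test, and Ncf1 passed in it (2.09, adjusted p = 0.0484). Counts of at most 70, all TIA 3d lanes being deeper than every other, and 3 samples per group limit the precision of each value, and depth and time point cannot be told apart at TIA 3d.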
